A study of Mus musculus with 4 samples.

Results

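Dppa2, Dppa3, Dppa4, Dppa5a, Utf1, Tcl1, L1td1, Fbxo15, Tex19.1 and Eras are genes of late pluripotency, known for their expression in embryonic stem cells, early embryos or germ cells. They were chosen by name, from probe sets that the platform annotation assigns to a single gene symbol. Of the 10 genes, 9 had such a probe set, 1 each, among 22180 genes measured in the same way. Eras has a probe set only together with another gene, Pcsk1n, and is given no value here. The study measured total RNA from 4 mouse cultures on 1 expression array each, so there were no replicates of any condition. Of these, 2 were bulk cultures of reprogrammable embryonic fibroblasts, cells in which doxycycline switches on reprogramming factors, taken on day 6 of reprogramming: 1 carried a Firefly knockdown (an insect luciferase that mouse cells lack, taken as the control) and 1 a Sumo2 knockdown. The 2 others were induced pluripotent stem cell (iPSC) lines derived after Sumo2 knockdown, labelled 38 h and 10 day, and the labels do not say what those times count. All 4 carry the strain label Black6-129X1/SvJ and a pool of both sexes, were grown in embryonic stem cell medium with serum, and list ascorbic acid and doxycycline as the fibroblast treatment. Nothing in the labels says how the knockdown was made or how separate the cultures were. The iPSC are labelled as stable clones, without saying whether an array holds 1 clone or several, and are called lines here.

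As background, fibroblasts that reprogram lose their own programme first and switch on the endogenous pluripotency network in steps, with several of these genes known as late markers of that course. Dppa2 and Dppa4 encode related chromatin proteins with a SAP domain that bind together at promoters with both active and repressive marks and act upstream of genes of the 2-cell embryo. Dppa3, also called Stella, guards DNA methylation in the early embryo and marks primordial germ cells, and Dppa5a encodes an RNA-binding protein with a KH domain. Utf1 encodes a chromatin factor of stem cells, Tcl1 a co-activator of the kinase AKT, L1td1 an RNA-binding protein derived from a retrotransposon, Fbxo15 a substrate receptor of an SCF ubiquitin ligase, and Tex19.1 a protein that holds retrotransposons in check in germ cells and placenta. Fbxo15 is a known target of Oct4 and Sox2 and served as a reporter in early work on reprogramming.

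All values below are levels on the log2 scale as deposited after RMA, a difference of 1 is 2-fold, and differences are in log2 units unless called fold. The measuring floor of an array is the median over its probe sets with 1 symbol, 6.64 to 6.67 on the 4 arrays, and a gene counts as measured in a comparison when at least 1 of its arrays reached the floor. Arrays give no counting depth, and their number limits the precision. Sumo2 itself read 10.65 in the Firefly culture and 10.56 in the culture labelled Sumo2 knockdown, or 93.8% of the control, so the transcript does not show the knockdown in that label, and each difference between the day 6 cultures rests on the label. Of 8 markers of pluripotent cells, 8 lay at or above the floor on each iPSC array, against 3 on the Firefly array and 6 on the Sumo2 array. Of 12 fibroblast markers, 10 and 9 remained at or above the floor on the 38 h and 10 day arrays. Thy1, the marker that fell most, read 8.85 and 8.69 there, against 11.71 and 11.23 at day 6. By the mean of each pair of arrays, 9 of the 12 read lower in iPSC. The 3 others read slightly higher (Fn1 by 0.185, Col1a1 by 0.071 and Col3a1 by 0.07).

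The genes of the set differed in when they could be read. On the Firefly array 3 of the 9 lay at or above the floor (Utf1, L1td1 and Fbxo15), on the Sumo2 array 4 (those and Dppa2), and on each iPSC array 8, all but Dppa5a. They were grouped by their course over the 4 arrays. Utf1 and Dppa2 were already higher in the Sumo2 culture than in the Firefly culture and far higher in iPSC. Tcl1 and Dppa4 reached the floor in iPSC alone, as did Tex19.1 and Dppa3 at lower readings, Dppa3 only just in the 38 h line. Fbxo15 could be read on every array and was higher in iPSC. L1td1 stood at a like level on every array, and Dppa5a lay below the floor on every array. These groupings describe the values and were not tested.

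**Figure D1:**
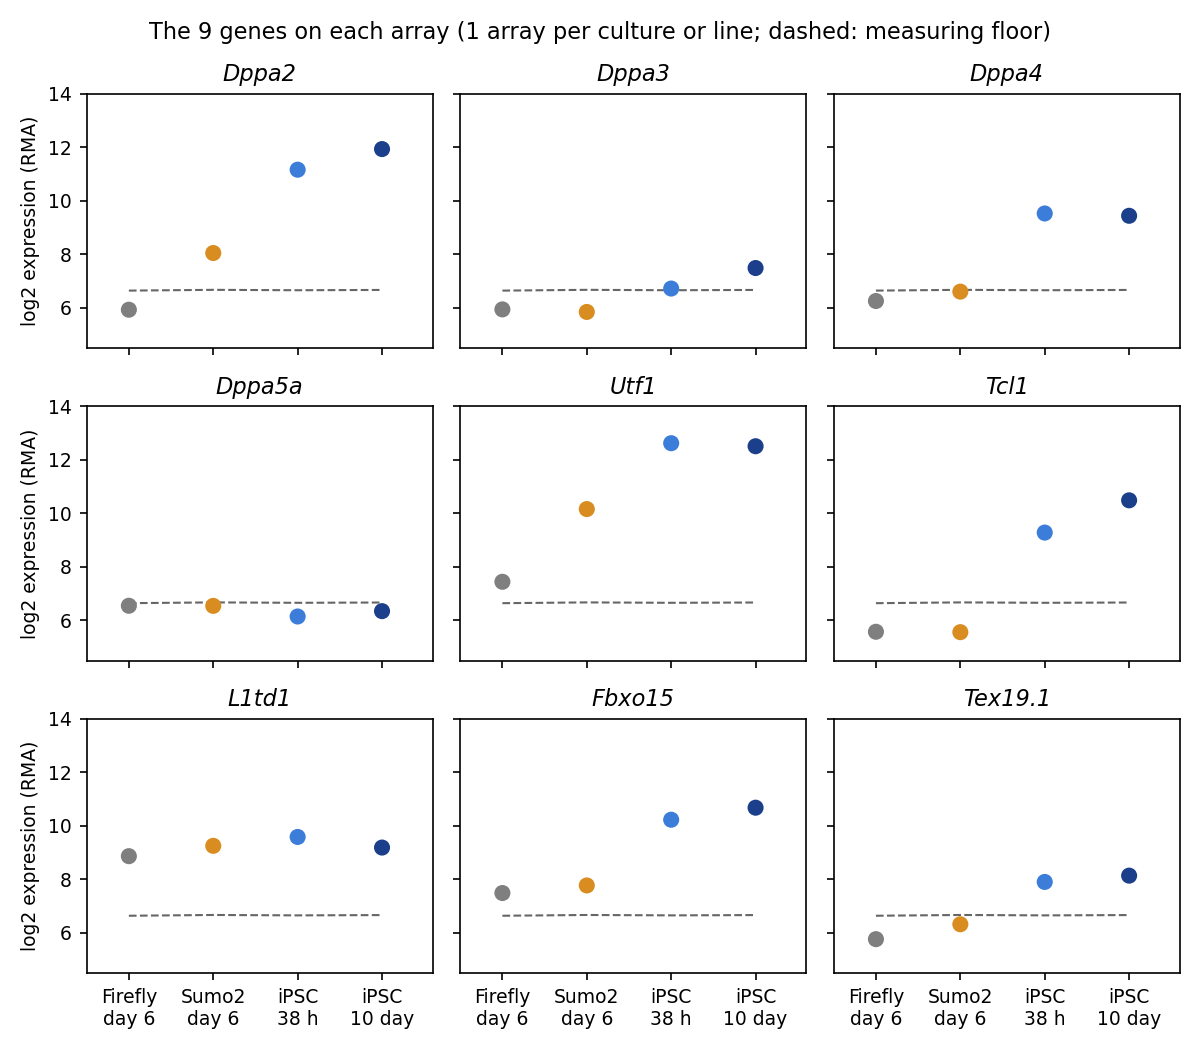
Log2 expression (RMA) of each of the 9 genes with a probe set, 1 panel per gene and 1 point per array, in the order Firefly day 6, Sumo2 day 6, 38 h iPSC and 10 day iPSC; the dashed line is the measuring floor of each array. Utf1 and Dppa2 stand higher on the Sumo2 array than on the Firefly array, Tcl1 and Dppa4 leave the floor in iPSC alone, and Dppa5a stays below it on all 4 arrays.

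The comparison of the day 6 cultures asked how far the set had moved when Sumo2, placed among roadblocks to reprogramming by the series title, was targeted. Utf1 and Dppa2 were far higher in the culture labelled Sumo2 knockdown, while L1td1 and Fbxo15 were slightly higher and the other genes could not be read. Utf1 read 7.44 in the Firefly culture and 10.16 in the Sumo2 culture, a difference of 2.71 or 6.56-fold, with both readings above the floor. It ranked 3 of 11740 measured genes from the highest difference. Dppa2 read 5.93 and 8.05, with the Firefly reading below the floor. Counted from the floor, Dppa2 was at least 2.64-fold higher (log2 1.40), against 4.34-fold as read, and by its difference as read it ranked 14 of 11740. Dppa2 thus crossed from unreadable to readable between the cultures, and its rank as read rests in part on background.

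The remaining genes gave small or unreadable differences at day 6. L1td1 went from 8.87 to 9.25 (0.39 higher, rank 1306) and Fbxo15 from 7.49 to 7.77 (0.28 higher, rank 2187), both under 1.5-fold. Dppa4, the partner of Dppa2, read 6.25 and 6.60, so it lay below the floor in both cultures, although its partner did not. Tex19.1 read 5.77 and 6.32, Tcl1 5.58 and 5.56, Dppa3 5.94 and 5.85, and Dppa5a 6.55 and 6.54. These 5 genes lay below the floor in both cultures and no fold is given for them.

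Of the 4 measured genes of the set, 4 read higher in the Sumo2 culture, as did 53.7% of all 11740 measured genes, and 2 were at least 2-fold higher, as were 0.945% of all; 0 were at least 2-fold lower (0.23% of all). At 1.5-fold the counts were again 2 higher (4.09% of all) and 0 lower (2.81%). Their median difference was 1.25, against 0.03 over all measured genes, and over all 9 genes, readable or not, it was 0.35 as read. Dppa2 is among the 4 only through the array on which it was high, so the count over those 4 supports nothing by itself. With 1 array a side there is no replicate error. When the spread of the iPSC pair stood in for it (1 residual degree of freedom), limma called 0 of 11740 genes at an adjusted p under 0.05, against 722 at an unadjusted p under 0.05, and the adjusted p was 0.0877 for Utf1 and 0.801 for Dppa2. In bulk RNA, fewer cells of a type and less RNA per cell cannot be told apart, so these arrays do not tell a few cells with much Utf1 from many with a little.

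**Figure D2:**
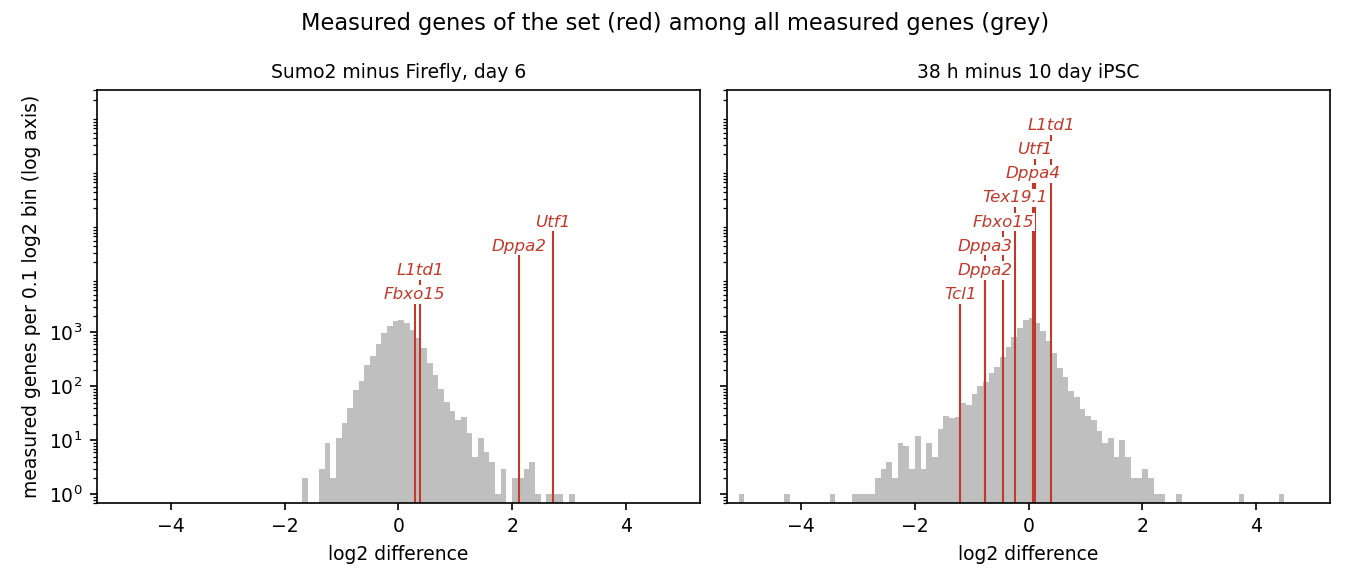
Histograms of the log2 difference of all measured genes (grey, genes per 0.1 log2 bin, log axis), Sumo2 minus Firefly at day 6 on the left and 38 h minus 10 day iPSC on the right, with the measured genes of the set as red lines. On the left Dppa2 (2.12) and Utf1 (2.71) lie in the far upper tail, and on the right Tcl1 (-1.20) lies in the lower tail while Utf1 (0.11) and Dppa4 (0.086) lie near the middle.

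The readings of other cell types moved with these differences. All 12 fibroblast markers read lower in the Sumo2 culture, with a mean log2 level of 9.28 against 9.77 and a median difference of -0.48, and 0 were 2-fold lower; Fn1, at -0.002, was nearly equal. Of the 6 measured markers of pluripotent cells 3 were at least 2-fold higher and Pou5f1 was nearly equal (7.56 and 7.58, 0.021 higher), with a mean over the 8 markers of 7.79 against 6.63. Of 6 primitive endoderm markers, the 2 measured read lower: Dab2 (11.07 and 10.68) and Gata4 (7.31 and 6.97). All 4 measured trophoblast markers read higher, Tfap2c by a fold of at least 2.62. Whether the makeup of the cultures has a part in the higher Utf1 and Dppa2 was not tested.

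The comparison of both iPSC lines with both day 6 cultures asked which of these genes separate established pluripotent cells from cells on the way. It used limma over the 4 arrays with 2 residual degrees of freedom, and rose or fell stands for a Benjamini-Hochberg adjusted p under 0.05 over all 12735 measured genes together with a 2-fold difference. Neither pair of arrays repeats a condition, and the knockdown label and the distance between the lines are part of the spread the test uses. An exact permutation test of 2 arrays against 2 cannot go below a two-sided p of 0.333, so none is given per gene. Of the 8 measured genes of the set 7 rose, all but L1td1, and 0 fell. Over all measured genes 14.3% rose and 9.12% fell, so that 61.1% of the calls were upward, against 51.7% after cyclic loess scaling. By the adjusted p alone the same 7 of the set were higher (29.0% of all) and 0 lower (17.8%). The median difference of the 8 genes was 2.93, against 0.15 over all measured genes. Of these 8, Dppa3, Dppa4, Tcl1 and Tex19.1 reached the floor only on the iPSC arrays. They were measured through those arrays alone, so they had to differ upwards and the count is a description.

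Dppa2 rose most as read, from 5.93 and 8.05 at day 6 to 11.16 in the 38 h line and 11.93 in the 10 day line. Its difference was 4.55 (SE 0.65, limma adjusted p = 0.00269), or at least 18.3-fold counted from the floor, and both iPSC arrays lay at least 3.11 above the higher day 6 array. Tcl1, with day 6 readings of 5.58 and 5.56, rose to 9.28 and 10.48, a difference of 4.31 as read (SE 0.37, limma adjusted p = 0.000573) and at least 9.33-fold from the floor. Utf1, with day 6 readings of 7.44 and 10.16, read 12.61 and 12.50 in the lines and rose by 3.76 (SE 0.77, limma adjusted p = 0.00939), or 13.5-fold. The wide errors of Dppa2 and Utf1 come with their unequal day 6 readings. Without the Firefly array the difference of Utf1 was 2.40 and that of Dppa2 3.50, and without the Sumo2 array 5.12 and 5.61, with both genes called each time.

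Dppa4 rose from 6.25 and 6.60 to 9.52 and 9.44, by 3.05 (SE 0.18, limma adjusted p = 0.000228) and at least 7.07-fold from the floor. Fbxo15, readable on all arrays, rose from 7.49 and 7.77 to 10.23 and 10.68, by 2.82 (SE 0.21, limma adjusted p = 0.000419) or 7.06-fold. Tex19.1 rose from 5.77 and 6.32 to 7.90 and 8.14, by 1.98 as read (SE 0.24, limma adjusted p = 0.0016) and at least 2.57-fold from the floor. For Dppa4, Fbxo15 and Tex19.1 the day 6 readings lay close together compared with their distance to the lines. By the difference as read the set ranked from 19 (Dppa2) over 29 (Tcl1), 60 (Utf1), 119 (Dppa4), 154 (Fbxo15), 426 (Tex19.1) and 1346 (Dppa3) to 5153 (L1td1) of 12735 genes. The order of genes that lay below the floor at day 6 rests on background.

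Dppa3, L1td1 and Dppa5a stood apart from the others. Dppa3 rose by 1.21 as read (SE 0.29, limma adjusted p = 0.0163), from 5.94 and 5.85 to 6.72 in the 38 h line, only just above the floor, and 7.49 in the 10 day line. Counted from the floor it differed by 0.45 (limma adjusted p = 0.213), and it was not called without the Firefly array (adjusted p = 0.0840), without the Sumo2 array (adjusted p = 0.0809) or without the 10 day array (difference 0.83, under 2-fold), so its call is the least firm of the 7. L1td1 read 8.87 and 9.25 at day 6 and 9.58 and 9.19 in the lines. The 10 day value lay below that of the Sumo2 culture, the groups overlapped, and the difference of 0.33 (SE 0.22) did not pass (limma adjusted p = 0.254). Dppa5a read 6.55, 6.54, 6.15 and 6.35 in the order of the arrays, below the floor on each, though it is known as an abundant transcript of mouse embryonic stem cells; with no filter on low values its difference was -0.30 (SE 0.16, limma adjusted p = 0.194). How well the Dppa5a and L1td1 probe sets respond was not tested, and copies of a gene that share probe sequence can be read together.

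In 7 of the 8 measured genes both iPSC arrays lay above both day 6 arrays, which 46.8% of all measured genes also did. In 6 of them (Dppa2, Tcl1, Dppa4, Utf1, Fbxo15 and Tex19.1) the gap was 2-fold or more in all 4 pairs of arrays, against 8.79% of all genes. For 5 genes (Dppa2, Dppa4, Utf1, Fbxo15 and Tex19.1) the values as read ascended from Firefly over Sumo2 to both iPSC arrays, as in 32.2% of all genes. For Dppa4 and Tex19.1 both day 6 values lay below the floor, so their order has no meaning, and 3 genes (Dppa2, Utf1 and Fbxo15) had an order that could be read. The Sumo2 culture lay short of the lines, by 3.11 and 3.88 for Dppa2 and by 2.46 and 2.34 for Utf1 below the 38 h and 10 day lines.

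Markers of other cells also differed between the lines and the day 6 cultures. Of 5 germ cell markers, 4 of them measured only through the iPSC arrays, 4 rose (Ddx4, Mael, Dazl and Prdm1), and their mean log2 level over the list went from 5.62 and 5.80 to 8.49 and 8.74. Of 12 fibroblast markers 3 fell (Thy1, Prrx1 and Twist1, by 2.70, 2.30 and 1.61) and 9 did not pass, with a mean of 8.82 and 8.48 in the lines. Of 4 primed epiblast markers Otx2 rose (2.96 as read), Pou3f1 did not pass, and Fgf5 and Cer1 lay below the floor (means 6.29, 6.52, 7.01 and 7.25 in the order of the arrays). Of 6 primitive endoderm markers Gata6 rose (1.32 as read, at least 2.16-fold from the floor), Pdgfra rose as read but was only 1.41-fold higher from the floor, and Dab2 fell (means 7.09, 7.09, 7.78 and 6.83), with Sox17 below the floor. Of 6 trophoblast markers Eomes rose (means 6.68, 7.12, 7.22 and 7.66), with Cdx2 and Elf5 below the floor. Of 5 macrophage markers Cd68 rose and Lyz2 rose as read, 1.93-fold from the floor (means 6.37, 6.31, 6.76 and 6.82), while the defining Ptprc, Csf1r and Adgre1 lay below the floor on all arrays, and of 4 endothelial markers Pecam1, which stem cells also express, rose and Tek fell (means 7.32, 7.35, 7.12 and 7.44). The part of these cells in the rise of the set was not tested.

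**Figure D3:**
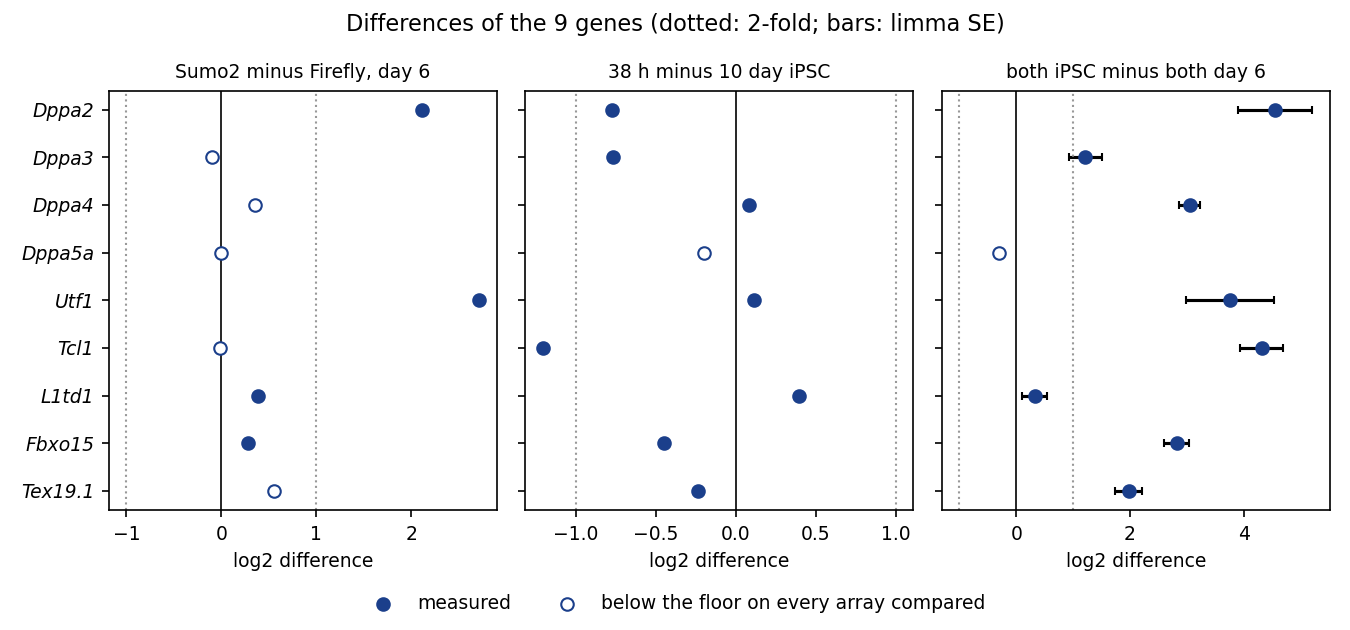
Log2 differences of the 9 genes in the 3 comparisons, with filled points for measured genes, open points for genes below the floor on every array compared, dotted lines at 2-fold and bars for the limma SE where a test was made. Utf1 and Dppa2 pass 2-fold on the left, Tcl1 in the middle, and 7 genes on the right.

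Promoter sequence was read from the RefSeq table of assembly GRCm38.p6 by gene symbol, and windows are given for 4 of the 9 genes. These are the 250 bases before the start of 3 genes that rose in iPSC (Utf1, Tcl1 and Tex19.1) and of L1td1, which did not pass. The windows set genes that rose in iPSC beside one at a like, readable level on every array. These 4 are the windows that were read, which left out Fbxo15, and need not be all the genes with a match. They run 5′ to 3′ on the strand of the gene. Capitals mark matches, on either strand, to the GC box GGGCGG, the TATA box TATAAA, the E2F motif TCCCGC and the octamer-like ATGTAAAT. The motifs were chosen with the sequences in view.
Utf1 (chr7:139943606-139943855, plus strand): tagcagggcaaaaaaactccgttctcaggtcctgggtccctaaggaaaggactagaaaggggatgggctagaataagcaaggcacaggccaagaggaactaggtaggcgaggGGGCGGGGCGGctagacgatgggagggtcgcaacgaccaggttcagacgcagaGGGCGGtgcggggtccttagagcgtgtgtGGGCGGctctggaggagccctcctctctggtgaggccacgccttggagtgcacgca
Tcl1 (chr12:105222738-105222987, minus strand): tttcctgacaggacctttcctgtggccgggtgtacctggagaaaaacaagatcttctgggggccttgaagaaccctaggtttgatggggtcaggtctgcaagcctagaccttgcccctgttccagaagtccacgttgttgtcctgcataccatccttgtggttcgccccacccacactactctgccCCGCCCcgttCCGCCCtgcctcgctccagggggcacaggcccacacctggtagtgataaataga
Tex19.1 (chr11:121145893-121146142, plus strand): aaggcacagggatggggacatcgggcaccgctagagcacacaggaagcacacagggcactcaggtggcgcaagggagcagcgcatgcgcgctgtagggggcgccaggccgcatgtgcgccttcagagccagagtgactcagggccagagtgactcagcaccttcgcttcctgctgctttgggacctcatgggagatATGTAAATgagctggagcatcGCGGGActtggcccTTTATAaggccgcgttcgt
L1td1 (chr4:98726504-98726753, plus strand): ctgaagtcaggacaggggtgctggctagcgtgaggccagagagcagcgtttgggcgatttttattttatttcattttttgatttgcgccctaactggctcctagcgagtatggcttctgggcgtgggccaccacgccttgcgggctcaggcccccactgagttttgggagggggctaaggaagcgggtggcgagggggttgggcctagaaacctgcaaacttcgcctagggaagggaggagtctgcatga

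The 4 windows differed in their motifs. Utf1 held 4 GC boxes, the first pair overlapping by 1 base, and Tcl1 held 2, while 32.7% of all 32851 promoter windows of the same length held at least 1. Tex19.1 held 1 octamer-like match (1.22% of all windows), 1 TATA box (12.4%) and 1 E2F motif (16.9%), and no GC box. L1td1 held none of these. None of the 4 windows held the octamer ATGCAAAT (1.60% of all windows), the Sox motif ACAATG (10.7%) or the E-box CACGTG (6.02%). The windows held 14 CG pairs in Utf1, 15 in Tex19.1, 11 in L1td1 and 7 in Tcl1, against a median of 6 over all windows. Utf1 and Tcl1 both held GC boxes, but no motif of this list was present in all 3 windows read of genes that rose. Other genes of the set that rose in iPSC have no window here. Of these, Fbxo15 was left out of the reading, which is not the same as having no match. A match is a description of letters, not a bound site.

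The comparison of the iPSC lines asked whether the late markers stood equally high in both. Tcl1 was the gene of the set furthest apart, at 9.28 in the 38 h line and 10.48 in the 10 day line, 2.30-fold lower in the former (difference -1.20, rank 163 from the lowest of 11754 measured genes). Dppa2 (11.16 and 11.93, -0.77) and Dppa3 (6.72 and 7.49, -0.77) were also lower in the 38 h line, at ranks 470 and 475, and Fbxo15 by less (-0.45, rank 1143). Tex19.1 differed by -0.23. Dppa4 (0.086), Utf1 (0.11) and L1td1 (0.40) read slightly higher in the 38 h line. The partners Dppa2 and Dppa4, which both rose in iPSC, differed between the lines by -0.77 and 0.086. Neither difference reached 2-fold, and each rests on 1 array a line.

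Of the 8 measured genes 3 read higher in the 38 h line, as did 52.5% of all measured genes, and 5 lower. Only 1, Tcl1, was 2-fold lower in the 38 h line, as were 2.19% of all, and 0 were 2-fold higher (1.03% of all). At 1.5-fold 3 were lower (6.44% of all), with Dppa2 and Dppa3 added, and 0 higher (4.11%). The median of the 8 was -0.34, against 0.02 over all measured genes. With the spread of the day 6 pair as the error, limma called 139 of 11754 genes and 0 of the set, with an adjusted p of 0.0908 for Tcl1 and 0.280 for Dppa3. Markers of other cells moved between the lines as well. All 5 measured primitive endoderm markers read higher in the 38 h line (median 0.97), Dab2 at 9.69 against 8.05 and Gata6 at 8.41 against 7.12, and 9 of 10 measured fibroblast markers did so too (median 0.23). In the direction of Tcl1, 3 of 4 measured trophoblast markers read lower in the 38 h line (median -0.68), Tfap2c (-1.42) and Krt8 (-1.01) by 2-fold, and of the 2 measured primed epiblast markers Otx2 did (-1.98). The part of these in the lower Tcl1, Dppa2 and Dppa3 of the 38 h line was not tested.

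On the chromosome, several genes of the set lie beside one another or beside other pluripotency genes. Dppa4, Dppa2 and Morc1, a gene for a transposon-silencing ATPase of germ cells, follow each other. Morc1 read 5.80 and 6.13 at day 6 and 8.36 and 8.65 in the lines, so all 3 neighbours rose in iPSC (Morc1 2.55 as read, SE 0.21, limma adjusted p = 0.000482, at least 3.61-fold from the floor), while Nectin3 on the other side of Dppa4 differed by 0.85 (limma adjusted p = 0.00806, under 2-fold). At day 6 Dppa2 alone of these 3 reached the floor, on the Sumo2 array.

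Dppa3 lies between Gdf3, a TGF-beta family ligand of pluripotent cells, and Nanog, a core pluripotency factor. Gdf3 read 6.90 and 7.61 at day 6 and 9.92 and 10.10 in the lines, and rose by 2.76 (SE 0.26, limma adjusted p = 0.000699). Nanog read 7.54, 9.87, 12.05 and 12.50 on the 4 arrays and rose by 3.57 (SE 0.68, limma adjusted p = 0.00718). Dppa3 had the smallest difference of these 3 neighbours, and it lay below the floor at day 6 where both neighbours could be read. Ooep, the readable neighbour of Dppa5a and like it a gene for a KH-domain protein, read 7.60 and 7.20 at day 6 and 9.19 and 9.86 in the lines, and rose by 2.12 (SE 0.27, limma adjusted p = 0.00181) where Dppa5a stayed below the floor. Tex19.1 rose while both of its neighbours, its paralog Tex19.2 (5.57, 5.58, 5.13 and 5.35) and Uts2r, lay below the floor on all 4 arrays. Kndc1, a neighbour of Utf1, lay below the floor at day 6 (6.01 and 6.31) and read 7.34 and 7.15 in the lines, a difference of 1.09 as read (limma adjusted p = 0.0075) but 0.59 from the floor, under 2-fold. The neighbours of L1td1 (Patj and Kank4) and of Fbxo15 (Cyb5a and Timm21) did not pass, with differences of -0.42 to 0.02.

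**Figure D4:**
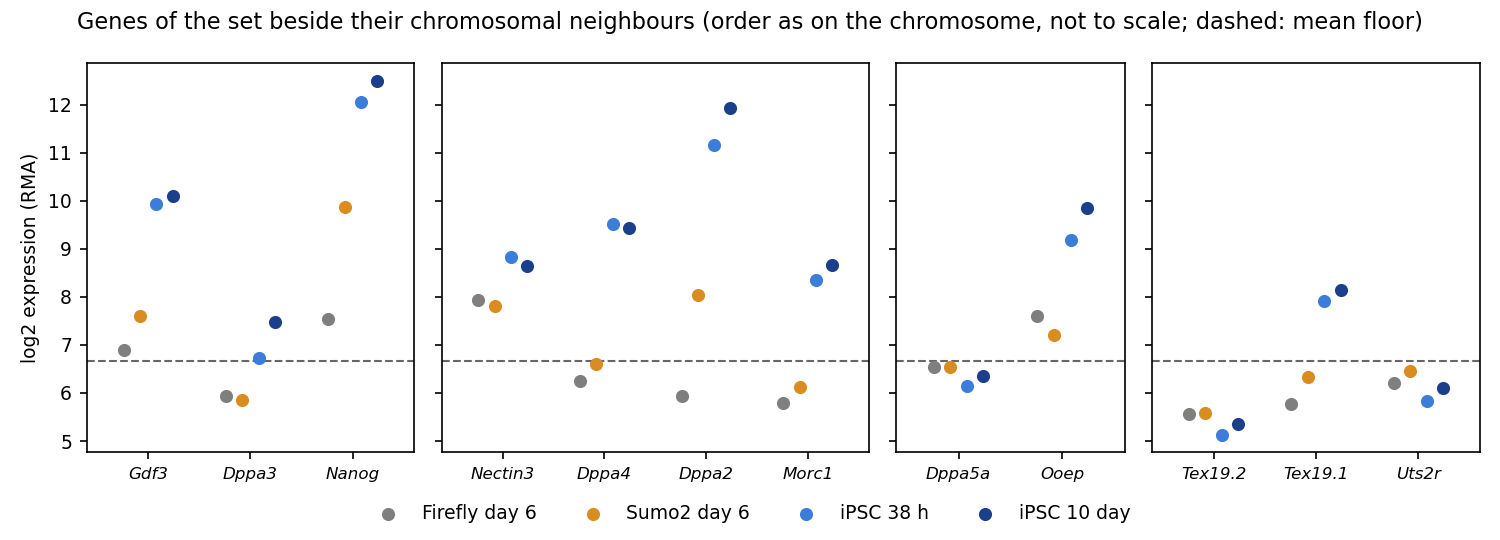
Log2 expression (RMA) on each of the 4 arrays for genes of the set and their chromosomal neighbours, in chromosomal order and not to scale, with the mean measuring floor dashed. Gdf3 and Nanog beside Dppa3, and Morc1 beside Dppa2, read higher on both iPSC arrays than on both day 6 arrays, while Tex19.2 and Uts2r stay below the floor.

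Other genes of the network were taken from lists, given here as counts beside the shares of all measured genes above (14.3% rose, 9.12% fell). Of 19 measured pluripotency transcription factor genes, 4 of them measured only through the iPSC arrays, 13 rose in iPSC and Klf4 fell by 1.09 (median 2.46). The other 5 did not pass, among them Pou5f1, which was 0.90 higher, under 2-fold (limma adjusted p = 0.0058). Whether the Klf4 and Pou5f1 readings on any array include transcript of the factors that doxycycline switches on was not tested. Sox2 and Zfp42, known as Rex1, lay below the floor at day 6 and rose at least 40.3-fold and 12.4-fold counted from it. At day 6, 13 of 15 were higher in the Sumo2 culture, 5 at least 2-fold as read: Nanog (2.33), Nr0b1 (2.31), Nr5a2 (1.82), Sall4 (1.58) and Mycn (1.11, or 0.61 from the floor). Utf1 and Dppa2 thus stood with a part of these factors at day 6, while Sox2 (6.10 and 6.55) and Zfp42 (5.72 and 6.10), like Dppa4 and Tcl1, lay below the floor in both cultures. Klf2 (-0.50) and Foxd3 (-0.05) were the 2 that read lower.

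Of 25 measured further late pluripotency genes, 9 of them measured only through the iPSC arrays, 22 rose in iPSC as read (21 by 2-fold from the floor, all but Lin28b), 0 fell, and Rhox6 (1.13), Rhox9 (0.56) and Jam2 (0.11) did not pass (median 2.17). Tdgf1, a Nodal co-receptor, and Dnmt3l, a cofactor of de novo methylation, rose at least 31.3-fold and 10.8-fold from the floor. At day 6, 13 of 16 were higher in the Sumo2 culture, 3 of them 2-fold: Tdgf1 (3.07 as read), the cell cycle factor Mybl2 (1.18) and the glucose transporter Slc2a3 (1.15). Between the lines 4 of 25 were 2-fold lower in the 38 h line (Rhox6, Rhox5, Lefty2 and Trap1a, by 2.20, 2.12, 1.53 and 1.12 as read) and 2 higher (Lin28b and Lin28a, by 1.21 as read and 1.03). Counted from the floor Lin28b was 1.5-fold higher.

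Dppa2 and Dppa4 are known to act upstream of 2-cell embryo genes, and Tex19.1 and Dppa3 belong with genes whose promoters are methylated outside the germline. Of 20 2-cell stage genes with a probe set 10 were measured, 7 of them only through the iPSC arrays, so that they had to differ upwards, and 10 lay below the floor throughout. As read 9 rose in iPSC and Zfp750 (0.12) did not pass, and 8 kept a 2-fold difference from the floor, all but Usp17la (1.37-fold). Zscan4e read 3.99 and 4.18 at day 6 and 10.96 and 10.90 in the lines, at least 19.3-fold from the floor. The Zscan4 and Usp17l genes are near-identical copies, and 1 probe set may pick up several of them, which leaves the copy uncertain. Between the day 6 cultures 0 of 3 measured 2-cell genes were 2-fold apart, Zfp750 being 0.94 higher in the Sumo2 culture. Of all measured genes 0.945% were 2-fold higher there and 0.23% lower. The other 2-cell genes with a probe set lay below the floor in both cultures. A link to Dppa2 or Dppa4 was not tested. Of 26 germline genes with a probe set 15 were measured, 13 of them only through the iPSC arrays, and 11 lay below the floor throughout. As read 14 rose, all but Tdrkh (-0.25), and 11 kept a 2-fold difference from the floor; Hormad1, Stk31 and Tex15 did not (1.4-fold, 1.65-fold and 1.97-fold). Ddx4, Mael and Dazl were at least 8.12-fold, 5.96-fold and 5.9-fold higher in iPSC. Only Stag3 (0.33 higher) and Tdrkh (0.74 lower as read) of this list were measured at day 6.

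The relatives and partners of the set moved less uniformly. Of 8 measured relatives, Ooep, Khdc3 (1.79) and Mtcp1 (1.31 as read, 1.87-fold from the floor), a homolog of Tcl1, rose, the Ras relative Mras fell by 2.40, and 4 did not pass. Of the Tcl1b genes beside Tcl1, Tcl1b1 read 7.28, 7.34, 6.99 and 6.98 and did not pass (-0.33, limma adjusted p = 0.154), and 4 others lay below the floor throughout, so the rise of Tcl1 was not seen in them. Of 13 AKT and PI3K pathway genes, with which the Tcl1 protein works, 0 rose and 2 fell: the regulatory subunit Pik3r1 (-1.43) and Akt1 (-1.07). Of 7 SCF ubiquitin ligase genes, the class that Fbxo15 belongs to, Fbxo5 rose (2.83-fold) and 6 did not pass, the core subunits Cul1 (0.45) and Skp1 (0.04) among them.

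Of 19 genes listed for active and repressive promoter marks or as partners of Dppa2, Dppa4 and Utf1, 8 rose and 0 fell (median 0.87). The oxidase Tet1 (3.70), Tet2 (1.86), the Polycomb cofactor Jarid2 (1.65) and the methyltransferase subunit Rbbp5 (1.39) were furthest. Dcp1a, the decapping factor that Utf1 recruits, differed by 0.73 and Kmt2b, a writer of the active mark, by 0.16, and neither passed with 2-fold. At day 6, 17 of 19 were higher in the Sumo2 culture, Tet1 by 1.69 and 0 others by 2-fold. Of 15 transposon repression genes, a field that Tex19.1 belongs to, 4 rose (Mov10, Cbx1, Morc3 and Smarcad1, 1.13 to 1.38) and 0 fell (median 0.64). Ubr2, the ligase that binds the Tex19.1 protein, differed by 0.55, under 2-fold.

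The genes whose 4 readings came closest to the median profile of the 9 genes (6.25, 6.60, 9.52 and 9.44) were Bcar3, Zfp534, Cnpy1, A4galt, Maneal and Mtf2, with root mean square distances of 0.156 to 0.286 log2 over the 4 arrays. For single genes of the set, the closest gene outside it was Nanog for Utf1 (0.321), Grhl3 for Dppa2 (0.628), Bcar3 for Dppa4 (0.156), Sohlh2 for Tcl1 (0.184), Smtnl2 for Fbxo15 (0.182), Ercc6l for Tex19.1 (0.072), Rgs22 for Dppa3 (0.127), Nop16 for L1td1 (0.056) and Zfp641 for Dppa5a (0.044). Dppa2 was the gene of the set with no close match, and among the 9 its nearest was Fbxo15, at 1.11. With 4 arrays many genes share a course by their values alone, so a small distance is a description.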

How the data were processed

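Per the submitters' processing notes, the authors made the deposited log2 values with RMA in Affymetrix Expression Console, 1 value per probe set and array; software versions are not given in the sources used here. No log base is stated with the values; 2 was assumed, as RMA writes it, and the values run from 2.98 to 13.72. Quantile normalization hides a change of total RNA per cell, and folds are compressed near the bottom and top of the RMA scale.

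Of 41345 probe sets 23521 had 1 symbol in the platform annotation, 1814 several and 16010 none listed, and these last are unnamed here. Entrez identifiers of 23328 were found in a RefSeq gene table (GRCm38.p6), which changed 0 symbols and gave the neighbours. For each of 22180 genes the probe set with the highest mean was taken; each of the 9 genes has 1. Differences between single arrays used a 2-fold rule and no p. limma 3.58.1 (R 4.3.3; lmFit, eBayes with intensity trend) tested both iPSC against both day 6 arrays, and its script was tested on simulated data. Alternatives were cyclic loess, the median over probe sets, values raised to the floor, other filters, no trend, a 1.5-fold rule and leaving out each array; medians over all 9 genes were added after seeing the data.

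The genes and lists were chosen with earlier results of these data known. Named are all 9 genes, up to 4 of each list by largest absolute difference, and the closest genes by root mean square distance; neighbours and all further genes were singled out after their values were seen. Predicted and clone-named genes were left out of the naming. A planned median of X-linked genes beside Eras was dropped, since Eras has no probe set of its own.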

Additional observations from a re-analysis of the deposited data

How the results depend on the processing

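With 1 array for each condition, no result has a replicate check, and readings below the measuring floor limit Dppa3, Dppa4, Tcl1, Tex19.1 and Dppa5a at day 6. No paired analysis was possible because the labels carry no replicate numbers. The count of genes of the set 2-fold apart at day 6 (2) went to 0 when limma took its error from the iPSC pair, and was 2 under the other alternatives. That between the lines (1) went to 0 with the spread of the day 6 pair and to 3 with a 1.5-fold rule. The median day 6 difference of 1.25 became 0.90 with values raised to the floor, and 0.35 over all 9 genes. The count called in iPSC against day 6 (7) was 6 to 7 when 1 array was left out, where the lone array is assumed to vary like the others, and 6 with values raised to the floor; the gene lost with the floor was Dppa3. The median of that comparison ran from 2.54 to 3.09 when 1 array was left out and was 2.76 after cyclic loess. Cyclic loess moved the share of rising genes among all called genes from 61.1% to 51.7% and the median of all measured genes from 0.15 to 0.03, and called the same number of the set, 7. No measured gene of the set changed direction under these alternatives.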
